A study of Mus musculus with 2 samples.

Results

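The genes described here carry the ACTH signal through cyclic AMP in the adrenal gland: 46 genes chosen by symbol, out of 55536 annotated genes. They comprise the ACTH receptor with its accessory proteins (3 genes), G protein alpha subunits (4), adenylyl cyclases (10), subunits of protein kinase A (6), phosphodiesterases (15), an anchoring protein (1), CREB-type factors with their coactivators (5) and the Epac exchange factors (2). Total RNA from adrenal glands of male B6CASTF1/J mice, offspring of a C57BL/6J by CAST/EiJ cross, was sequenced at an age of 14 days in 2 libraries, biological replicates 1 and 2 of a single group. Each library was started from 300 ng of RNA with spike-in RNAs and was prepared with a strand-keeping kit. No treatment or genetic change is given, so there was no contrast between conditions, no test and no p-value. The labels place both libraries under 1 donor record and number the pools of males alike in one field and differently in another. The SD, always over n = 2, may therefore be technical in part.

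In the adrenal cortex, ACTH from the pituitary binds the melanocortin 2 receptor, which reaches the cell surface only with its accessory protein. The receptor acts through the stimulatory G protein on adenylyl cyclase, and the cyclic AMP made frees the catalytic subunits of protein kinase A, which promote steroid synthesis and phosphorylate CREB. Phosphodiesterases break cyclic AMP down, and Epac proteins respond to it without the kinase.

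The libraries held 32963248 and 36260745 expected counts, and levels are given in TPM, a share of the transcripts in a library corrected for transcript length, from the deposited RSEM values unless kallisto is named. The defining markers of the gland were present: the 6 cortex genes summed to 5919 TPM in one library and 6436 TPM in the other (replicates 1 and 2), and the 7 chromaffin genes of the medulla to 1318 and 1347 TPM. Other tissue was present too. The 8 fat cell markers summed to 3122 and 3110 TPM, and the 5 kidney markers were each under 1 TPM. The 6 hepatocyte markers had sums of 299 and 5174 TPM, with each marker over 2-fold higher in replicate 2. The 8 lymphocyte markers summed to 74.3 and 10.1 TPM, with each over 2-fold higher in replicate 1. In such bulk tissue, fewer cells of a type and less RNA per cell cannot be told apart.

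Of the 46 genes, 39 reached 1 TPM in each library, and the other 7 were below 1 TPM in both. Their levels spanned the range from Gnas, at over 1000 TPM, to Adcy8, listed at 0.02 and 0.01 TPM. The 46 genes accounted for 0.894% of the nuclear protein-coding TPM in replicate 1 and 0.862% in replicate 2, and Gnas alone made up 57.9% and 55.9% of their sum. When the genes were ordered by mean level, 27 of the 45 neighbouring pairs had ranges that overlapped between the libraries, so the order holds between tiers of genes more than between neighbours. Gnas stood clear of Prkar2b, and Mrap stood clear of Prkar1a, whereas Prkar2b and Mrap overlapped.

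**Figure D1:**
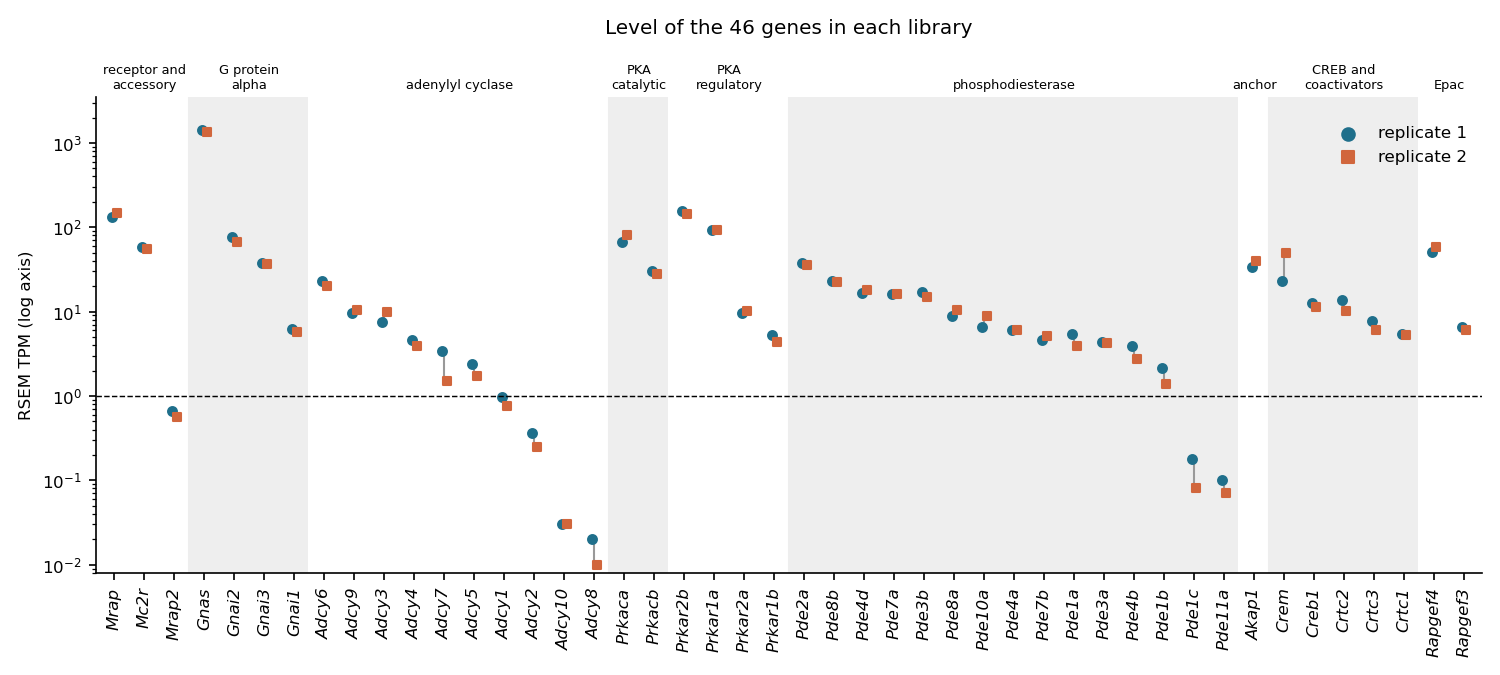
Level of each of the 46 genes in replicate 1 (circles) and replicate 2 (squares), in RSEM TPM on a log axis, grouped by role and ordered by mean within each role. The dashed line marks 1 TPM. Most pairs of points above the line lie almost on each other, whereas Crem (23.2 and 49.8 TPM) and Adcy7 (3.40 and 1.51 TPM) are visibly apart, as is Pde1c (0.18 and 0.08 TPM) below it.

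Both parts of the ACTH receptor complex were well expressed as RNA, and the accessory protein gene exceeded the receptor gene. Mc2r, the receptor itself, stood at 58.7 TPM (replicate 1) and 55.3 TPM (replicate 2; 57.0 ± 2.38). Mrap, whose product carries the receptor to the cell surface (chr16:90738207-90749785, plus strand, build GRCm38), was at 132 and 146 TPM (139 ± 9.86). The log2 ratio of Mrap to Mc2r was 1.29 ± 0.162, a 2.44-fold excess, present in both libraries and larger with kallisto (log2 1.70). Fat cell markers were present as given above, so neither level nor their ratio can be assigned to cortex cells. Mrap2, a relative that acts with other melanocortin receptors, was at 0.66 and 0.56 TPM from 43 and 38 expected counts. The coding transcript Mrap-201 held 86.9% ± 1.30 of the Mrap TPM, and Mrap-202, of the annotated type destroyed by nonsense-mediated decay, held 8.93% ± 0.835. With kallisto these shares were 67.6% and 24.5%.

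None of the 5 relatives listed beside the receptor reached 1 TPM. They were the melanocortin receptors Mc1r, Mc3r, Mc4r and Mc5r and the gene of the ACTH precursor, Pomc, which was at 0.21 and 0.32 TPM. Of 16 other receptors that raise cyclic AMP, 4 averaged 1 TPM or more. Adcyap1r1, the receptor for the peptide PACAP and known from chromaffin cells, was the highest at 9.84 and 7.96 TPM, and Adora2a, an adenosine receptor, was at 2.82 and 1.87 TPM. Gcgr, the glucagon receptor known from liver, was at 0.60 and 3.16 TPM and moved with the hepatocyte markers given above, whose part in this was not tested.

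Gnas, which encodes the stimulatory alpha subunit, was the most abundant of all 46 genes and far exceeded the inhibitory subunits. Replicate 1 had 1419 TPM and replicate 2 had 1340.5 TPM (1379.7 ± 55.5). Among the inhibitory subunits, Gnai2 was at 75.6 and 67.2 TPM, Gnai3 at 37.4 and 36.2 TPM and Gnai1 at 6.18 and 5.69 TPM. The log2 ratio of Gnas to the 3 summed was 3.60 ± 0.032, a 12.1-fold excess. Gnai2 made up 62.5% ± 1.31 of the inhibitory sum. A Gnas level is not a level of the alpha subunit alone, because the locus also starts transcripts at upstream promoters that give other products.

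At the Gnas locus (chr2:174284320-174346744, plus strand), annotated starts within 1000 bases of each other were joined into 6 groups. The group at the usual first exon of the alpha subunit held 1344 and 1274 TPM, 94.9% ± 0.245 of the gene. The most upstream group, which encodes the secretory protein Nesp55, held 25.7 and 25.9 TPM, or 1.87% ± 0.0841. The next, which encodes the extra-large form of the alpha subunit, held 2.28 and 1.89 TPM. Transcripts from the exon 1A region held 32.5 and 25.8 TPM, 2.10% ± 0.260 of the gene with RSEM but 17.2% with kallisto, so this share was not settled by the deposited values.

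Within the main group, the alpha subunit is made in a long and a short form that differ by exon 3 (chr2:174336747-174336791, 45 bases, coding). The form with exon 3, Gnas-208, held 472 and 474 TPM, and the forms without it, Gnas-206 and Gnas-207, held 857 and 788 TPM together. Exon 3 was thus included in 36.5% ± 1.42 of these transcripts with RSEM, and in 34.7% with kallisto. The short forms were the more abundant in both libraries. The joined sequences are shown because these few bases tell the forms apart: each line gives the last 12 bases of exon 2 and the first 12 of exon 4 in lower case, with the bases absent from Gnas-206 in capitals. They are from the GENCODE M21 transcripts, 5′ to 3′ on the plus strand.
Gnas-206: gtttaacggagatgagaaggccac
Gnas-207: gtttaacggagaTAGtgagaaggccac
Gnas-208: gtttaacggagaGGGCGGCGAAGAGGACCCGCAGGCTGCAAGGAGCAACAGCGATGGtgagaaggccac
Gnas-207 differs from Gnas-206 at this junction by the 3 capital bases, and their shares were less certain than that of exon 3. Gnas-206 held 36.6% of the gene with RSEM and 16.4% with kallisto, and Gnas-207 held 23.0% and 35.8%.

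Of 23 partners of these subunits, such as other alpha subunits, the beta and gamma subunits and chaperones, 21 averaged 1 TPM or more. None was over 2-fold apart between the libraries, where 5.89% of all nuclear protein-coding genes at that level were. The highest were the beta subunits Gnb2 (163 and 155 TPM) and Gnb1 (111 and 105 TPM), and the gamma subunit Gng5 (78.8 and 77.3 TPM). Of 11 genes that dampen receptor signalling, 10 averaged 1 TPM or more, again with none over 2-fold apart. Rgs2, which limits G protein signals, led at 101 and 127 TPM. Rgs5, known from pericytes, was at 42.3 and 35.1 TPM, and the receptor kinase gene Grk2 was at 19.8 and 12.2 TPM.

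Adenylyl cyclases, which make cyclic AMP, were spread over several genes at low to middling levels, and Adcy6 was the highest. The 10 genes summed to 51.9 and 48.3 TPM, less than Mc2r alone in replicate 1 and in replicate 2. Adcy6, a cyclase inhibited by calcium, was at 22.9 and 19.9 TPM and held 42.7% ± 2.10 of the family (44.2% with kallisto). Adcy9 was at 9.62 and 10.4 TPM (20.1% ± 2.16 of the family) and Adcy3 at 7.55 and 9.79 TPM (17.4% ± 4.04), and their ranges overlapped. The lead of Adcy6 held at the gene level. On transcripts with a complete coding sequence, Adcy6 was at 11.1 and 9.26 TPM with RSEM, and its range overlapped that of Adcy9. With kallisto, Adcy6 was at 23.4 and 19.4 TPM on those transcripts, above Adcy9 at 13.8 and 14.7 TPM. Adcy4 and Adcy5 lay between 1.71 and 4.60 TPM. Adcy1, Adcy2, Adcy8 and the soluble cyclase Adcy10 were under 1 TPM in both libraries, Adcy8 from 4 and 2 expected counts and Adcy10 from 3 and 5.

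Adcy7, a cyclase known from blood cells, was one of 2 genes of the pathway over 2-fold apart between the libraries, where 5.89% of the 12535 nuclear protein-coding genes averaging 1 TPM or more were, 2.52% in the direction of Adcy7. Replicate 1 had 3.40 TPM and replicate 2 had 1.51 TPM, 2.25-fold lower, from 606 and 277 expected counts. kallisto gave 5.77 and 2.37 TPM. The lymphocyte markers were higher in the same library, 8 of 8, and summed to 74.3 and 10.1 TPM, whereas the 6 macrophage markers summed to 35.7 and 32.3 TPM. Their part in the Adcy7 difference was not tested.

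**Figure D2:**
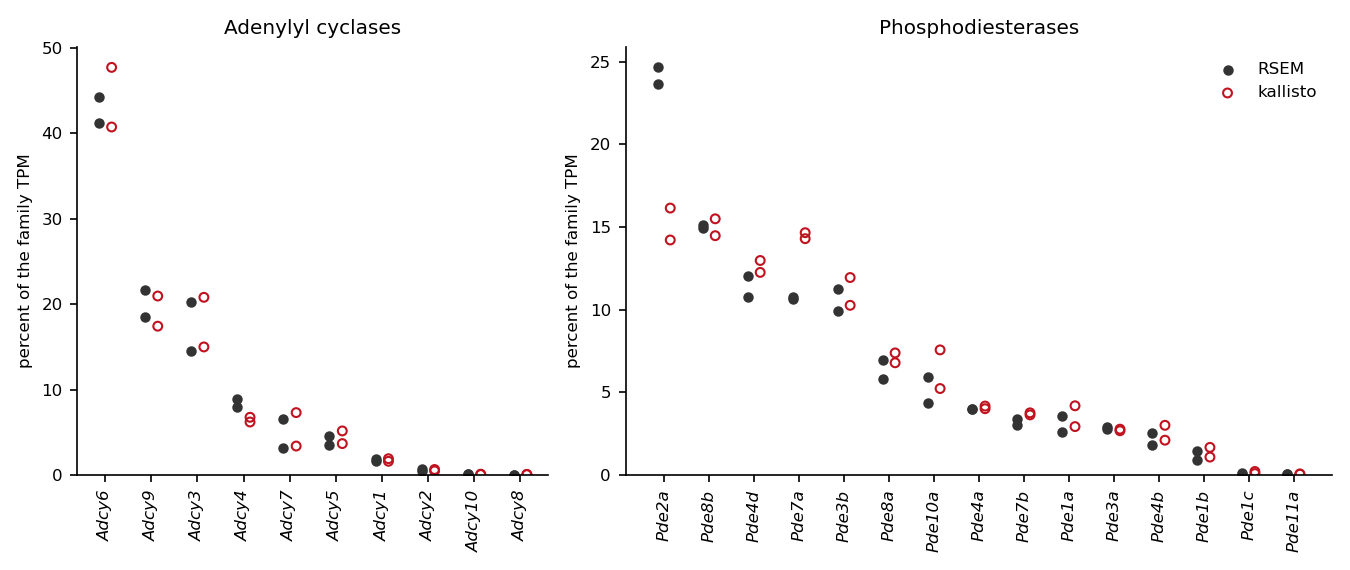
Share of each gene in the summed TPM of the 10 adenylyl cyclases (left) and the 15 phosphodiesterases (right), in percent, with 1 point per library for RSEM (filled) and kallisto (open). At the gene level, Adcy6 leads the cyclases with both quantifications, whereas Pde2a leads the phosphodiesterases clearly with RSEM (24.1%) and not with kallisto (15.2%, beside 14.98% for Pde8b).

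Protein kinase A subunits were among the most abundant genes of the pathway. The catalytic subunit Prkaca was at 66.9 and 80.9 TPM and Prkacb at 30.4 and 27.8 TPM, a log2 ratio of 1.34 ± 0.286 (2.53-fold), with kallisto at 1.07. The regulatory subunits, which hold the catalytic ones inactive until cyclic AMP binds, were led by Prkar2b at 155 and 143 TPM and Prkar1a at 93.9 and 93.3 TPM. Prkar2a followed at 9.67 and 10.1 TPM, and Prkar1b was at 5.33 and 4.42 TPM. Prkar2b made up 57.9% ± 1.23 of the regulatory sum and Prkar1a 36.4% ± 1.15. The log2 ratio of type II to type I subunits was 0.69 ± 0.0591, a 1.62-fold excess, with kallisto at 0.85. Prkar2b is also a main subunit of fat cells, whose markers were present as given above, so its level cannot be assigned to cortex cells.

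Prkar1a, the gene mutated in Carney complex with its adrenal overgrowth, differed little between libraries, with a ratio of 0.993 for replicate 2 to replicate 1. Its level was shared between alternative first exons in a way that differed by quantification. The start group of Prkar1a-201 (annotated starts chr11:109650575 to 109650921, plus strand) held 85.4% ± 0.975 of the TPM with RSEM but 27.7% with kallisto. The upstream group of Prkar1a-203 (start 109649405) held 13.6% ± 0.421 and 70.0%. Both transcripts have a coding sequence of 1143 bases. The gene level was 93.6 ± 0.488 TPM with RSEM and 127 and 122 TPM with kallisto.

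**Figure D3:**
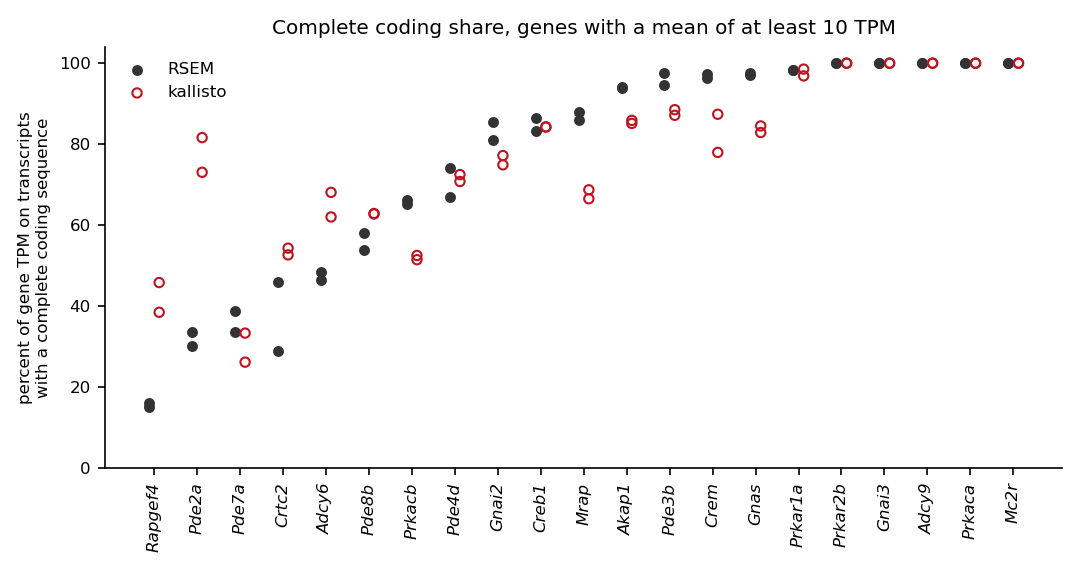
Percent of a gene's TPM on transcripts annotated with a complete coding sequence, for the 21 genes averaging 10 TPM or more, with 1 point per library for RSEM (filled) and kallisto (open). Mc2r and Prkaca are at 100%, and Rapgef4 (15.6% and 42.1%) and Pde2a (31.8% and 77.3%) are far lower with RSEM than with kallisto.

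The 3 inhibitor genes and 16 further anchoring proteins of the kinase were examined beside these. Pkig, a kinase inhibitor, was the highest of its kind at 12.5 and 11.9 TPM, with Pkia at 2.56 and 2.01 TPM and Pkib under 1 TPM in both libraries. Akap1, which tethers the kinase to the outer membrane of mitochondria, where steroid synthesis begins, was at 34.2 and 40.3 TPM (37.2 ± 4.33). Of the 16 other anchoring genes, 12 averaged 1 TPM or more. None of the 12 was over 2-fold apart, where 5.89% of all nuclear protein-coding genes at that level were. The 12 were led by Akap2 (34.3 and 37.0 TPM), Akap8 (25.6 and 21.3 TPM) and Akap13 (19.3 and 17.3 TPM).

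Phosphodiesterases, which degrade cyclic AMP, were numerous: 13 of 15 genes reached 1 TPM in each library, and together they summed to 153 and 151 TPM. The highest was Pde2a, an enzyme activated by cyclic GMP, at 37.7 and 35.6 TPM. Pde8b, a high-affinity enzyme known from the adrenal cortex, was at 22.8 and 22.7 TPM, and Pde4d, itself regulated by the kinase, at 16.5 and 18.1 TPM. Pde7a (16.2 TPM in each library) and Pde3b, the insulin-regulated enzyme of fat cells and other tissues (17.1 and 14.98 TPM), lay close behind. The remaining 8 detected genes lay between 1.39 and 10.4 TPM, and Pde1c and Pde11a were under 1 TPM in both libraries. None of the 13 was over 2-fold apart, where 5.89% of all nuclear protein-coding genes averaging 1 TPM or more were.

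The lead of Pde2a depended on the quantification. Pde2a held 24.1% ± 0.725 of the family TPM with RSEM, ahead of Pde8b at 15.02% ± 0.103. With kallisto, Pde2a held 15.2%, Pde8b 14.98% and Pde7a 14.5%, and the ranges of Pde2a and Pde8b over the libraries overlapped. RSEM placed 53.3% ± 2.99 of the Pde2a TPM on Pde2a-209, a transcript of the nonsense-mediated decay type, on which kallisto placed 2.64%. The coding transcript Pde2a-204 held 25.0% with RSEM and 57.3% with kallisto. On transcripts with a complete coding sequence, Pde2a was at 11.3 and 11.9 TPM with RSEM and at 25.0 and 26.0 TPM with kallisto. On those transcripts, Pde3b (16.2 and 14.6 TPM), Pde8b (13.3 and 12.3 TPM) and Pde4d (12.2 and 12.1 TPM) were above Pde2a with RSEM. With kallisto, all of these were below it.

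Pde4d makes long and short enzymes from many promoters, and 15 start groups were annotated. A single group, that of Pde4d-206 and Pde4d-207, held 11.1 and 12.3 TPM, 67.6% ± 0.446 of the gene (61.2% with kallisto). Pde4d-207 alone held 61.1%. Pde4a was at 6.09 and 6.05 TPM and Pde4b at 3.86 and 2.76 TPM. Of 11 further genes with phosphodiesterase names, which include non-enzymes, 5 averaged 1 TPM or more. The 3 highest were Pde4dip, a scaffold that binds Pde4d (10.9 and 9.61 TPM), Pde5a, an enzyme specific for cyclic GMP (8.36 and 7.52 TPM), and Pde6d, a chaperone of lipid-modified proteins (8.08 and 7.77 TPM).

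The Epac gene Rapgef4 (chr2:71981240-72257474, plus strand) stood far above Rapgef3 at the gene level, but most of its TPM lay on transcripts without a complete coding sequence. Rapgef4, which encodes Epac2, was at 51.0 and 57.8 TPM, and Rapgef3, which encodes Epac1, at 6.64 and 6.00 TPM. The log2 ratio was 3.11 ± 0.231, or 8.61-fold, and 2.90 with kallisto. Only 15.6% ± 0.800 of the Rapgef4 TPM lay on complete coding transcripts with RSEM, against 42.1% with kallisto. Counted on those alone, Rapgef4 was at 8.24 and 8.68 TPM with RSEM, and the log2 ratio to Rapgef3 was 1.11. With kallisto, Rapgef4 was at 31.2 and 31.4 TPM on those transcripts, and the ratio was 3.01. This count, like the same comparison for the cyclases, phosphodiesterases and Crtc genes, was added after seeing the data.

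The 2 highest Rapgef4 transcripts with RSEM were entries without a coding sequence: Rapgef4-204, of 666 bases, at 17.2 and 19.6 TPM, and Rapgef4-210, of 3539 bases, at 14.7 and 19.0 TPM. The coding form with the upstream start, Rapgef4-202 (coding sequence of 3033 bases), was at 4.60 and 4.97 TPM. The shorter form Rapgef4-201 (2601 bases), which starts at an internal first exon, as the form known as Epac2B from the adrenal gland does, was at 3.50 and 3.71 TPM. The start group of Rapgef4-201 held 8.40% of the gene with RSEM and 32.8% with kallisto. Of 13 other genes that respond to cyclic AMP, transport it or act below Epac, 7 averaged 1 TPM or more. None of the 7 was over 2-fold apart, where 5.89% of all nuclear protein-coding genes at that level were. Rap1a and Rap1b, the small GTPases that Epac activates, were the highest at 54.8 and 49.7 TPM and at 34.7 and 34.0 TPM. Rap1gap was at 10.9 and 12.1 TPM.

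Among the factors that cyclic AMP acts on in the nucleus, Crem was the highest and the most different between the libraries. Creb1, the activator phosphorylated by the kinase, was at 12.8 and 11.4 TPM. Its coactivators, which enter the nucleus when cyclic AMP rises, were at 13.8 and 10.1 TPM for Crtc2, 7.72 and 6.08 TPM for Crtc3 and 5.49 and 5.23 TPM for Crtc1. Crtc2 held 49.1% ± 2.71 of their sum, and 44.0% with kallisto. Crtc2-201, the only Crtc2 transcript with a complete coding sequence, held 28.8% of the TPM in replicate 1 and 46.1% in replicate 2 with RSEM. With kallisto it held 54.3% and 52.6%, so the gap between the libraries was seen with RSEM only. On complete coding transcripts with RSEM, Crtc2 was at 3.96 and 4.66 TPM, below Crtc3 at 5.99 and 4.97 TPM. With kallisto, Crtc2 was at 9.27 and 8.34 TPM on those, above Crtc3 at 8.31 and 6.82 TPM.

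Replicate 1 had 23.2 TPM of Crem and replicate 2 had 49.8 TPM (36.5 ± 18.8), 2.15-fold higher in replicate 2, from 687 and 1704 expected counts. With kallisto it was at 36.3 and 72.8 TPM. The gene makes activators and repressors from upstream promoters, and from an internal promoter the short repressor ICER, a known early product of cyclic AMP signalling. Of 6 start groups, the internal one, 56 kb downstream of the first, held 19.2 and 40.0 TPM over 7 transcripts, 81.6% ± 1.87 of the gene. With kallisto the same group held 67.0%, and by RSEM expected counts it held 62.5% in replicate 1 and 56.1% in replicate 2. It was 2.08-fold higher in replicate 2 (2.19-fold with kallisto), and the most upstream group was higher there too, at 2.44 and 6.26 TPM. Upstream and internal starts were thus both higher in the same library.

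**Figure D4:**
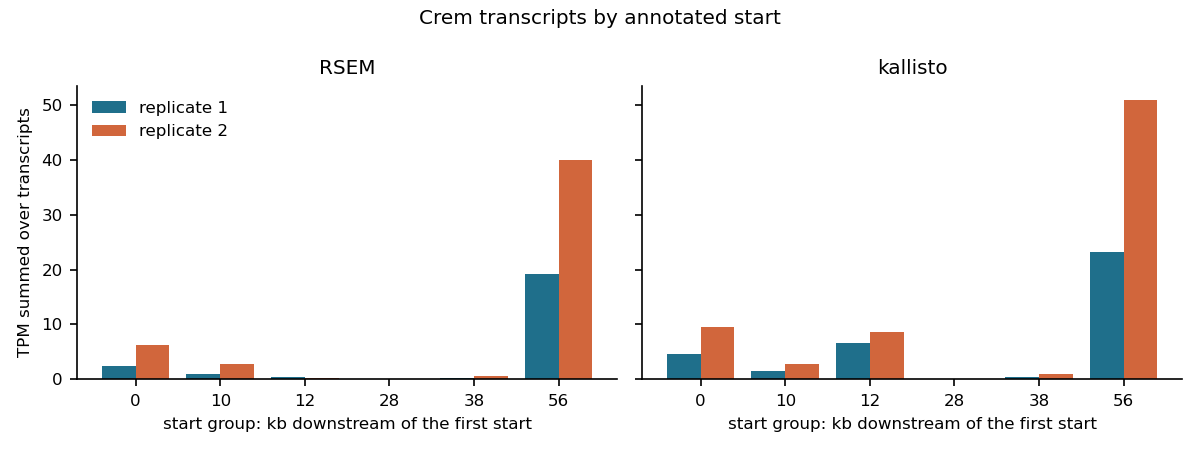
TPM of Crem summed over the transcripts of each start group, for replicate 1 and replicate 2, with RSEM (left) and kallisto (right). Groups are placed by their distance in kb downstream of the first annotated start. The tallest bars are at 56 kb, at 19.2 and 40.0 TPM with RSEM, and replicate 2 is the higher there with both quantifications.

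Across the 39 genes averaging 1 TPM or more, Crem and Adcy7 were the 2 that differed over 2-fold between the libraries. That is 2 of 39, a share near the background. Of all genes at that level, 3.37% were over 2-fold higher in replicate 2, as Crem was, beside the 2.52% in the direction of Adcy7. By any amount, 13 of the 39 genes were higher in replicate 2, where 37.2% of all genes were. The credibility intervals that RSEM gives for the TPM of a single library did not overlap for 14 of the 39, a larger share than the 20.5% of all genes. These intervals cover the assignment of reads within 1 library and not the spread between animals. The 39 genes also had a higher median level, 11.95 TPM against 8.275 TPM for all, and its part in this was not tested. On the log2(TPM + 1) scale, the median of replicate 2 less replicate 1 stood at -0.08 for the 39 genes and -0.06 for all, and the median coefficient of variation was 8.15% and 7.94%.

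The difference in Crem was seen beside genes known to rise early after cyclic AMP. Of 11 such genes, all averaging 1 TPM or more, 10 were higher in replicate 2, and 6 of these over 2-fold, against 3.37% of all genes. Their median on the same log2(TPM + 1) scale was 0.94. The nuclear receptor gene Nr4a1, which is induced by ACTH, was the highest at 95.1 and 183 TPM, just under 2-fold apart, and its relatives Nr4a2 and Nr4a3 were at 1.81 and 13.0 TPM and at 13.1 and 29.1 TPM. Junb was at 15.5 and 57.0 TPM, Fos at 3.15 and 10.7 TPM and Fosb at 0.55 and 6.04 TPM. Ppargc1a was at 4.01 and 8.43 TPM. Per1, a clock gene with a cyclic AMP response, was the exception at 31.6 and 31.4 TPM.

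These genes also respond to signals other than cyclic AMP. The hepatocyte markers were higher in the same library, 6 of 6, and their part in the difference of Crem or of the list was not tested. Earlier results of these libraries had shown immediate early genes higher in replicate 2, so the list is not independent support for Crem. Among 12 partners of CREB, 10 averaged 1 TPM or more, and 2 were over 2-fold higher in replicate 2, as were 3.37% of all genes. They were Sik1, a kinase that restrains the Crtc coactivators and is induced by ACTH (12.6 and 27.0 TPM), and Creb3l3, a factor known from liver (0.66 and 7.14 TPM). The others of the 3 highest were steady: Sik2 was at 37.6 and 36.9 TPM and Creb3 at 31.3 and 29.3 TPM.

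**Figure D5:**
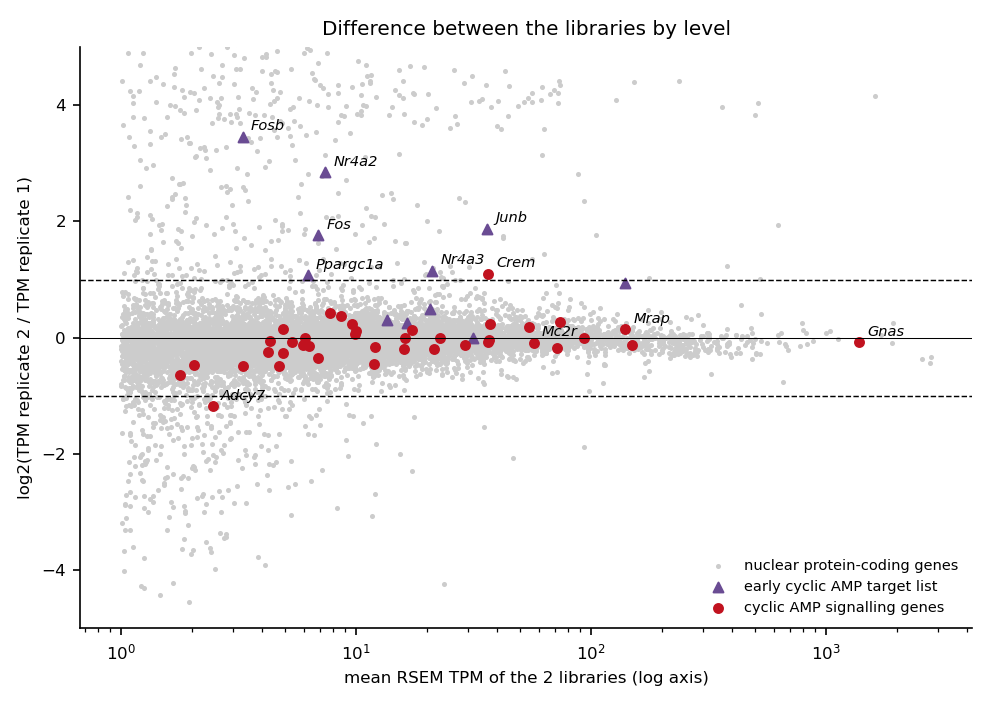
Log2 ratio of TPM, replicate 2 over replicate 1, against the mean TPM on a log axis, for nuclear protein-coding genes averaging 1 TPM or more (grey), the cyclic AMP signalling genes (red circles) and the early cyclic AMP targets (purple triangles). Dashed lines mark 2-fold, and 25 genes that were at 0 in a library or beyond the axis are not drawn. Crem and 6 of the 11 early targets lie above the upper line, and Adcy7 lies below the lower.

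CREB binds the palindrome TGACGTCA and, less strongly, its core TGACG, and the promoter windows of RefSeq (250 bases before to 50 after a start, build GRCm38.p6) were searched for both on both strands, where each TGACGTCA also counts as TGACG. Windows were at hand for 36 of the 46 genes and for 9 of the 11 early targets. None was at hand for Mc2r, Mrap, Gnai2, Adcy6, Adcy8, Pde3a, Pde3b, Pde7a, Crem and Crtc2, or for the targets Egr1 and Ier2. The promoters of Crem were therefore not searched. A window need not lie at the start in use: the only one of Pde4d was at a start group with 0 TPM in each library with RSEM. The palindrome lay in 1.79% of all 32851 windows, in 2 of the 78 windows of the 36 genes, both of Prkar1a and overlapping, and in 1 of 10 windows of the early targets, that of Dusp1. The core lay in 20.8% of all windows, in 20 of those 78 (25.6%), and in 10 of 10 windows of the early targets. Counted by gene, 16 of the 36 genes (44.4%) had the core in at least 1 window, against 23.1% of all 27025 genes, and a gene with more windows has more chances of a match. All 9 early targets with a window held the core, so targets with and without it could not be compared. Their differences between the libraries ranged from that of Per1 (31.6 and 31.4 TPM) to that of Fosb (0.55 and 6.04 TPM). Dusp1, with the palindrome, was at 15.1 and 17.9 TPM. A match describes the letters in the window and not binding.

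Nr4a1, the early target with the highest level, is shown for its 4 matches to the core, all on the reverse strand as CGTCA, in capitals (chr15:101266596-101266895, plus strand). Prkar1a is shown because it alone of the 36 genes held the palindrome, in capitals, in a window beside the start of Prkar1a-201 (chr11:109650699-109650998, plus strand). The match in Prkar1a begins 49 bases before the RefSeq start of that window. It begins 38 bases after the start of the overlapping window (chr11:109650612-109650911), so its side depends on the start used.
Nr4a1: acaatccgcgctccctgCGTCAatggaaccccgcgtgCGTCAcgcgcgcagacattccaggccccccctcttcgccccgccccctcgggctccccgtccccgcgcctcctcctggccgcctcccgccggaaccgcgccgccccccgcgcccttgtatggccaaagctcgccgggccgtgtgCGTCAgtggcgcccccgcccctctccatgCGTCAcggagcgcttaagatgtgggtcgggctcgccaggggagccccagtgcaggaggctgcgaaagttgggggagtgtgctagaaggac
Prkar1a: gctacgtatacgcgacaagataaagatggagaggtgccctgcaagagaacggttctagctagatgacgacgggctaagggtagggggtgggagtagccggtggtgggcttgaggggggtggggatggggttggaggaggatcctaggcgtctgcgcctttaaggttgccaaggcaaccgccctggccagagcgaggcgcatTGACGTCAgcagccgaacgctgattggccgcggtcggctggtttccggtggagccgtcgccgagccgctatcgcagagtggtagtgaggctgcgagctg

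Transcript-level shares were less firm than gene levels throughout the pathway. Of the 21 genes averaging 10 TPM or more, the highest transcript was the same with RSEM and kallisto for 12 and the highest start group for 18. The TPM share on complete coding transcripts was under 50% with RSEM for 5 of them: Rapgef4, Pde2a, Pde7a (36.2%), Crtc2 (37.4%) and Adcy6 (47.4%). By RSEM expected counts, the share was 81.05% for Pde7a and 63.3% for Adcy6. It was 49.8% for Crtc2, 36.5% for Pde2a and 31.2% for Rapgef4. The TPM share differed by over 20 percentage points between the quantifications for Rapgef4 and Pde2a. The median ratio of kallisto to RSEM gene levels was 1.55 for the 39 genes and 1.52 for all. Pde2a alone among the 46 genes had a ratio under 1, at 0.904 (30.6 and 35.6 TPM with kallisto). Comparisons between genes were therefore made within 1 quantification.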

How the data were processed

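Total RNA-seq of 2 adrenal gland libraries was analysed, both in 1 group per the labels. Expected counts and TPM per gene and transcript were deposited by the authors, quantified against mm10 with GENCODE M21, per the deposited file list, and their column names are those RSEM writes, per the file headers. The credibility bounds of TPM form a signal with no fixed total, per the file headers. A further table deposited by the authors holds estimated counts and TPM per transcript under the column names of kallisto, per the file headers, summed here to genes. The TPM deposited by the authors cover the spike-ins as well. Which aligner and versions the authors used is not given in the sources used here. Reads of CAST alleles were thus matched to mm10 sequence, with an effect that was not tested.

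The 46 genes and all lists were chosen with earlier results of these data known. Named in full were the receptor genes, Gnas, both genes of a pair, the 3 highest of each larger family or list, the 2 highest transcripts of a gene where described, and any gene with a mean of at least 1 TPM over 2-fold apart; others, and the transcripts Gnas-207, Rapgef4-201 and Rapgef4-202, were named after their values were seen. Detection meant at least 1 TPM in both libraries, and ratios were taken per library. Alternatives were kallisto, RSEM posterior means, other minima (0.5 and 5 TPM or none), a pseudocount of 0.1, leaving out each library, and scaling by TMM (edgeR 4.0.16), DESeq2 1.42.0 size factors on rounded expected counts, spike-ins or nuclear protein-coding genes. Scripts used Python 3.11.15, pandas 2.3.3, numpy 2.4.6 and R 4.3.3, and the fold counts were tested on simulated data. No interval for depth was computed beyond the deposited bounds.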

Additional observations from a re-analysis of the deposited data

How the results depend on the processing

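All 5 log2 ratios kept their sign under every alternative run. With kallisto, the log2 ratio was 1.70 for Mrap over Mc2r, 3.75 for Gnas over the inhibitory subunits and 0.85 for type II over type I regulatory subunits, each moved by more than 1 SD. The share of Pde2a was 15.2%, of Crtc2 44.0%, of the internal Crem starts 67.0%, of the main Gnas start group 80.1%, of complete coding Rapgef4 transcripts 42.1% and of exon 3 in Gnas 34.7%. With RSEM posterior means, the Rapgef4 to Rapgef3 log2 ratio was 2.78 and the Pde2a share 23.1%. On complete coding transcripts, chosen after seeing the data, that log2 ratio was 1.11 with RSEM and 3.01 with kallisto. The causes were not tested. At a minimum of 5 TPM, 30 genes were left and 1, Crem, was over 2-fold apart, against 2.75% of all genes. Adcy7 lies below that minimum. With no minimum, 3 of 46 were, with Pde1c added, against 9.1% of all genes. Under TMM, DESeq2, spike-in and nuclear protein-coding scaling, 2 genes were over 2-fold apart, against 5.83%, 5.82%, 6.09% and 8.59% of all genes. The median differences lay between -0.16 and -0.002, against -0.13 to 0.01 for all genes. With 2 libraries, leaving out either moves a ratio or share by less than 1 SD by construction, and 39 genes were detected in either alone. No paired analysis was possible because there is 1 group of 2 libraries. Of the 7 genes under 1 TPM, Adcy8, Adcy10 and Pde11a had under 10 expected counts in each library.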
